A study of Sus scrofa with 12 samples.

Results

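The MHC class I genes were followed in pig skeletal muscle over the first weeks after birth. They were chosen by name, as every probe set whose gene symbol is SLA-1, SLA-2, SLA-3, SLA-6, SLA-7, SLA-8, B2M, TAP1, TAP2 or TAPBP. Of 24123 probe sets on the array, 20 carried 1 of these symbols and no other, and they covered 8 of the 10 genes. SLA-1 appeared only on probe sets that name several genes, and no probe set of the probe table used here named TAP2. Of the 20, 17 were bright enough to be tested and covered all 8 genes. A further 5 probe sets named a class I gene together with another gene, and 4 of those were tested.

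The 12 Affymetrix arrays came from 4 ages, with 3 arrays each: within 24 hours of birth, called day 0, and days 7, 14 and 21 after birth. The pigs are not described as treated or mutated, so the groups differ by age alone in the labels. The labels call the arrays of an age biological replicates and do not name the muscle, the breed or the litter, so the p-values measure the spread between these samples. An array reads each transcript with a set of short probes, and its signal is a brightness on a linear scale, scaled by the authors with MAS5 to a common trimmed mean.

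MHC class I molecules carry short peptides from inside the cell to its surface, where cytotoxic T cells inspect them. Each molecule joins a heavy chain, which holds the peptide, to the light chain beta-2 microglobulin, and in pigs the heavy chains are called swine leukocyte antigens, or SLA. The transporter TAP brings peptides into the endoplasmic reticulum, and tapasin holds the empty molecule beside it until a peptide is bound. Interferons raise the genes of this pathway together in many tissues, and resting muscle fibres are known for little class I on their surface. SLA-1, SLA-2 and SLA-3 are the classical heavy chains. SLA-6, SLA-7 and SLA-8 are nonclassical ones.

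Between day 0 and day 21, 9 of the 17 tested class I probe sets rose and 0 fell. They stood for SLA-2, SLA-6, SLA-8, TAP1 and B2M, with rises between 1.55-fold and 3.21-fold. A probe set was called, that is, said to rise or fall, at a Benjamini-Hochberg adjusted p of 0.05 in limma, adjusted over all 14399 probe sets tested. Over the whole array 11.5% of probe sets were called in this comparison, and 6.61% were called higher. Of the 17 sets, 9 carry the symbol B2M and gave 5 of the rises, so the 17 are not independent. By gene, each by its brightest tested probe set, 5 of 8 rose and 0 fell, against 7.36% of 5296 genes called higher. The median log2 change of the 17 was 0.97, against 0.02 over all probe sets tested, and 15 of the 17 had a higher mean at day 21. All 3 day 21 arrays lay above all 3 day 0 arrays for 11 of the 17, a pattern that 15.3% of all tested probe sets showed. In the F test for any change over the 4 ages 6 of the 17 were called, against 8.88% of the array.

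The day 0 arrays stood apart from the later ones in control signals as well as in the muscle's own genes. The added poly-A control RNAs, which are labelled together with the sample, had a log2 ratio of 3' to 5' signal of 0.506 to 1.49 at day 0 and of 0.0639 to 0.489 on the 9 later arrays. The value of 1.49 was that of replicate 2 of day 0 alone. Replicates 1 and 3 of day 0 had 0.524 and 0.506, close to the 0.489 of replicate 3 of day 21. The added hybridization controls had a mean log2 signal of 12.09 to 12.26 at day 0 and of 12.4 to 12.79 later. The ribosomal 28S RNA, which comes from the sample, had a log2 signal of 11.04 to 11.89 at day 0 and of 12.08 to 12.79 later, and its part in the class I rises was not tested. With the poly-A ratio as a covariate 3 of the 17 class I probe sets were called higher at day 21, namely SLA-2 and the B2M probe sets Ssc.12348.1.S1_at and Ssc.8925.1.S1_at. Over the 8 genes, each by its brightest tested probe set, the median change was 1.04 with that covariate and 1.12 without it, and all 8 had a higher mean in both fits. TAP1 changed by 1.67 ± 0.58 with the covariate against 1.67 ± 0.47 without it, and SLA-8 on Ssc.23510.1.A1_s_at by 1.22 ± 0.40 against 1.19 ± 0.32. Of the other lost calls, SLA-6 changed by 1.39 against 1.68, and B2M on Ssc.12809.5.A1_at by 0.41 against 0.63. With the arrays scaled on the hybridization controls 5 were called higher and 1 lower, while the median change of all probe sets moved to -0.36. Over the array 952 of 1657 called probe sets were higher at day 21 as deposited, 739 of 1771 after median centring and 397 of 2883 with scaling on the hybridization controls. Since day 0 and the later arrays do not overlap in either measure, these measures and the first age cannot be told apart fully.

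Genes of the muscle fibre itself moved over the same ages. All 19 muscle marker genes on the array were bright enough to be tested, and 9 of them rose and 0 fell between day 0 and day 21, with a median of 0.46, against 7.36% of 5296 genes called higher. Of the 19, 18 had a higher mean at day 21. Their summed signal was 468000.0 to 646100.0 at day 0 and 724900.0 to 904100.0 at day 21. The first in order of p were the fast myosin heavy chain MYH2 (2.74 ± 0.28, limma adjusted p = 0.000482), the glycogen phosphorylase PYGM (1.44 ± 0.24, adjusted p = 0.00297), the slow troponin T TNNT1 (1.37 ± 0.23, adjusted p = 0.00344) and the slow myosin light chain MYL2 (1.01 ± 0.17, adjusted p = 0.00363), and these 4 were called under all 23 alternatives. The median was 0.10 after quantile normalization and 0.08 with scaling on the hybridization controls, and the 9 rises became 16 without replicate 3 of day 0 and 5 without replicate 1 or 2 of day 0 or replicate 2 or 3 of day 21. The part of these changes in the class I rises was not tested.

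Among the classical heavy chains, SLA-2 was read by Ssc.13780.5.S1_x_at. Affymetrix marks such a set with x because some of its probes may also read related transcripts, and the SLA genes are close relatives. Its signals were 3524, 3472 and 4374 at day 0 and 10100.1, 6533 and 6606 at day 7. They were 8379, 8222 and 13711 at day 14, and 12846, 6649.5 and 10136 at day 21. All 9 later arrays lay above all 3 day 0 arrays. SLA-2 rose by 1.34 ± 0.26 (log2, SE, n = 3 arrays per age) between day 0 and day 21, which is 2.53-fold, with a limma adjusted p of 0.00682. It was called under all 23 alternative settings of the fit, with adjusted p-values up to 0.0488.

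SLA-3 had signals of 1175, 800.3 and 1992 at day 0 and of 3085, 1636 and 3179 at day 7 on Ssc.13780.9.S1_a_at. At day 14 they were 2702, 4431 and 2459, and at day 21 they were 4089.5, 2204 and 1876. One day 21 array lay below the brightest day 0 array, so these ages overlapped. The difference of 1.06 ± 0.38 between day 21 and day 0 had a limma adjusted p of 0.0881. Without replicate 3 of day 0, the brightest of that age, SLA-3 was called with a difference of 1.405 and a limma adjusted p of 0.0278.

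The nonclassical SLA-6 had the largest fitted rise of the heavy chains. Its probe set Ssc.13780.3.S1_at had signals of 209.5, 141.1 and 177.4 at day 0 and of 291.7, 256.2 and 331 at day 7. The signals were 557.6, 266 and 871.3 at day 14 and 661.9, 420.8 and 623.4 at day 21. All 9 later arrays lay above the day 0 arrays, and the spread was widest at day 14. SLA-6 rose by 1.68 ± 0.35 between day 0 and day 21, or 3.21-fold, with a limma adjusted p of 0.00964. The call was lost only with the poly-A ratio as a covariate, where the change was 1.39 with an adjusted p of 0.0694. A second SLA-6 probe set, Ssc.16308.1.S1_at, stayed between 12.4 and 72.9, under the limit of 90.3 for testing.

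SLA-7 was read by Ssc.23660.1.S1_at, whose signals lay close to the limit for testing. Its signals were 44.4, 83.7 and 95.9 at day 0, 124.3, 57.9 and 132.5 at day 7, 200.2, 134.5 and 104.3 at day 14, and 76.2, 108.7 and 166.9 at day 21. All 3 day 14 arrays lay above the day 0 arrays, while days 7 and 21 each had an array within the range of day 0. The difference between day 21 and day 0 was 0.65 ± 0.46, with a limma adjusted p of 0.396.

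SLA-8 was read by a pair of probe sets. On Ssc.23510.1.A1_s_at, whose name marks a set shared by several transcripts, the signals were 491.9, 568.1 and 450.7 at day 0 and 966.1, 1029 and 765.7 at day 7. They were 1472, 638.7 and 1399.5 at day 14 and 1652, 749.9 and 1202 at day 21. All 9 later arrays lay above day 0. By this probe set SLA-8 rose by 1.19 ± 0.32, or 2.28-fold, with a limma adjusted p of 0.0319. This call was lost without replicate 1, 2 or 3 of day 0 (adjusted p = 0.0675, 0.0551 and 0.0636 in limma) and without replicate 1 or 3 of day 21 (adjusted p = 0.130 and 0.0951 in limma). It held under 13 of the 23 alternatives.

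The other SLA-8 probe set, Ssc.13780.7.S1_at, had signals of 428.2, 610.6 and 400.2 at day 0 and of 813.7, 933.1 and 441 at day 7. The signals were 971.9, 527 and 1250.4 at day 14 and 1193, 707.7 and 936.8 at day 21. The day 21 arrays lay above the day 0 arrays, but 1 array each of days 7 and 14 did not. The difference of 0.97 ± 0.35 between day 21 and day 0 had a limma adjusted p of 0.0851. Its fold of 1.96 was near that of the other SLA-8 probe set, and the pair correlated at r = 0.924 over the 12 arrays and at 0.872 after the mean of each age was subtracted.

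In all, 3 of the 6 tested heavy chain probe sets were called higher at day 21, against 6.61% of all tested probe sets. All 6 had a higher mean, with a median difference of 1.12. The sets of SLA-2, SLA-3 and SLA-6 and the SLA-8 set Ssc.13780.7.S1_at share the number 13780 in their names. Sets of such close relatives may read each other's transcripts, which was not tested, so the 6 are not independent. After age means were subtracted, SLA-6 correlated with SLA-2 at 0.622, with SLA-8 on Ssc.23510.1.A1_s_at at 0.705 and with SLA-3 at -0.097. All 9 later arrays lay above day 0 for 3 of the 6 heavy chain sets and for 7 of the 17 class I probe sets, against 7.44% of all tested probe sets. The plot of heavy chain signals by age shows where day 0 and the later arrays are separate and where they overlap.

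**Figure D1:**
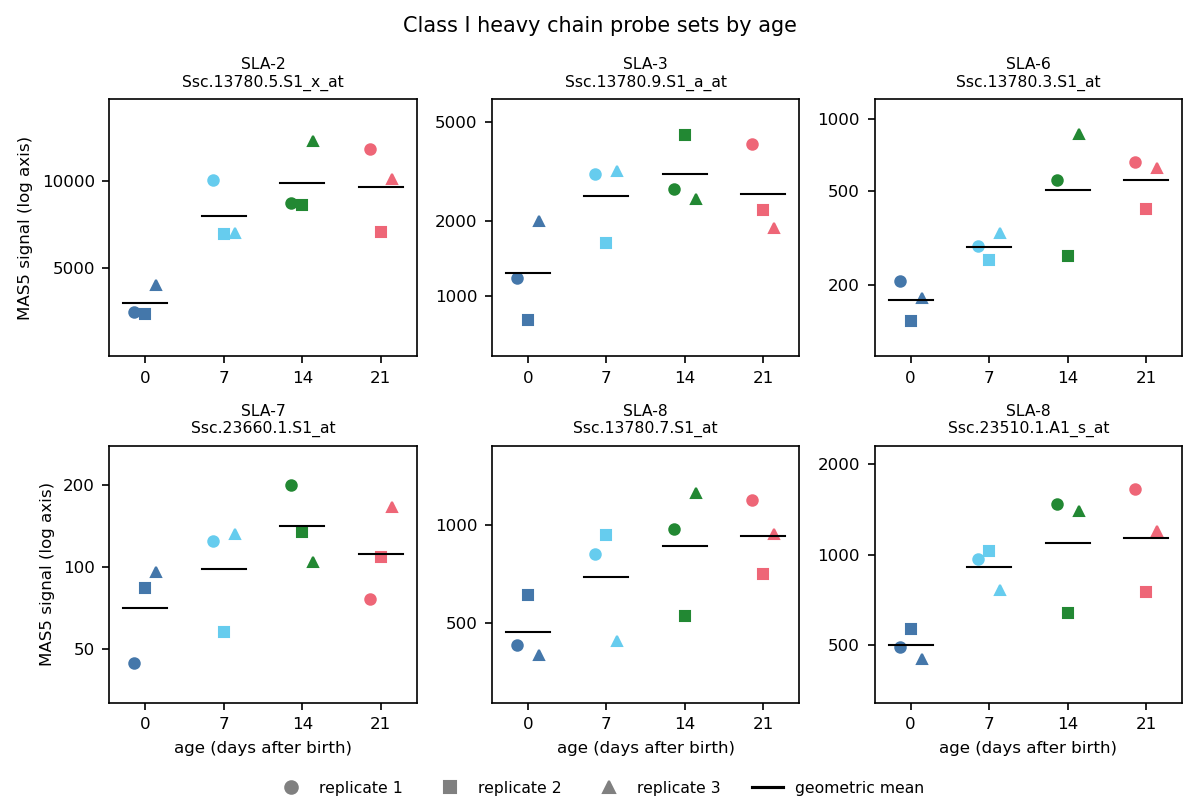
MAS5 signal (log axis) of the 6 tested heavy chain probe sets against age in days after birth; each point is an array, its shape is the replicate number, and the bars are geometric means of 3 arrays. Day 0 has the lowest mean in every panel, and all later arrays lie above it for SLA-2, SLA-6 and SLA-8 on Ssc.23510.1.A1_s_at.

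Of the probe sets that name several genes, 2 were called higher, and they may read SLA-2 transcripts as well, so they are not independent of it. Ssc.13780.4.S1_x_at, named for SLA-2 and SLA-3, had signals of 3484, 4044 and 4422 at day 0 and of 11421, 7515 and 9592 at day 21. It rose by 1.24 ± 0.22, or 2.36-fold, with a limma adjusted p of 0.00386, and it was called under all 23 alternatives. Ssc.13780.10.S1_x_at, named for SLA-1, SLA-2 and LOC100513601, had signals of 2552, 1717 and 2883 at day 0 and of 9414, 4579.5 and 6367 at day 21. It rose by 1.48 ± 0.30, or 2.79-fold, with a limma adjusted p of 0.00816. This call was lost only with the poly-A ratio as a covariate, at 1.10 with an adjusted p of 0.0625.

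The other tested sets that name SLA-1 were not called. Ssc.13780.11.S1_x_at, named for SLA-1 and LOC100513601, had signals of 419.6, 30.5 and 73 at day 0, 1387, 1114 and 99.3 at day 7, 1859, 72.9 and 4805 at day 14, and 1252, 1675 and 3118 at day 21. Its highest array was 158 times its lowest, far wider than the 11.1 times of TAP1, the widest range among the 17 single-symbol sets. Arrays of days 7 and 14 fell into bright and dim ones, whereas the day 21 arrays were all bright. The difference of 4.26 ± 1.37 between day 21 and day 0 had a limma adjusted p of 0.0619, and the F test had an adjusted p of 0.198. Ssc.13780.10.A1_at, named for SLA-1, SLA-2 and LOC100513601, differed by 0.14 ± 0.39 with a limma adjusted p of 0.852. Ssc.13780.11.A1_at stayed between 2.3 and 67.8 and was not tested.

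B2M, the light chain of every class I molecule, was the symbol of 9 probe sets, all tested. Only 8 symbols on the array have 9 or more, and the median symbol has 1. The probe table gives the 9 a single Entrez identifier, and RefSeq's Sscrofa11.1 lists 2 genes named B2M with 1 gene between them. Whether each of the 9 reads a B2M transcript was not tested. Of the 9, 5 rose and 0 fell between day 0 and day 21, and 2 had a lower mean at day 21. Over all tested probe sets 6.61% were called higher. The median difference of the 9 was 0.63.

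Ssc.12348.1.S1_at had B2M signals of 9508, 12786 and 16849 at day 0 and of 29927, 21005 and 21186 at day 7. They were 29132, 26291 and 31826 at day 14 and 29421, 27462 and 28491 at day 21. Every later array lay above day 0, and the 3 arrays of day 21 lay close together. B2M rose on this set by 1.16 ± 0.19, or 2.24-fold, with a limma adjusted p of 0.00307. Its neighbour in name, Ssc.12348.2.S1_at, went from 1927, 2511 and 4009 at day 0 to 8648.5, 8309 and 5296 at day 21. It rose by 1.43 ± 0.31, or 2.70-fold, with a limma adjusted p of 0.0109, and lost its call only with the poly-A ratio as a covariate, at 1.25 with an adjusted p of 0.0708.

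Ssc.8925.1.S1_at overlapped day 0 at day 7 and not at day 21. Its signals were 17507, 15032 and 20407 at day 0, 16834, 22115 and 23843 at day 7, 29228, 29987.5 and 24167.5 at day 14, and 35914, 30750.4 and 42969 at day 21. The geometric mean was higher at each later age, 17510.0, 20710.0, 27670.0 and 36200.0 in order. The rise between day 0 and day 21 was 1.05 ± 0.17, or 2.07-fold, with a limma adjusted p of 0.00301, while the difference between day 7 and day 0 was 0.24 ± 0.17 with an adjusted p of 0.413. No alternative ended the call at day 21.

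The 2 sets whose names share the number 12809 also rose. Ssc.12809.5.A1_at had signals of 30832, 22194 and 36129 at day 0, 44514, 49077 and 38152 at day 7, 44422, 47657 and 42582 at day 14, and 39654, 44237 and 52393.5 at day 21. The later arrays all lay above day 0, and the geometric means of the later ages lay between 43680.0 and 45130.0. The rise at day 21 was 0.63 ± 0.17, or 1.55-fold, with a limma adjusted p of 0.0305, and it was lost without replicate 2 of day 0 (0.44, adjusted p = 0.101 in limma), replicate 2 of day 21 (0.65, adjusted p = 0.0638) or replicate 3 of day 21 (0.52, adjusted p = 0.123). It held under 13 of the 23 alternatives, and after quantile normalization the difference was 0.36 with a limma adjusted p of 0.160. Ssc.12809.4.S1_a_at went from 390.1, 275.3 and 346.9 to 696.7, 494.3 and 764, a rise of 0.94 ± 0.22 with a limma adjusted p of 0.0168. That call was lost without replicate 2 of day 0 (0.80, adjusted p = 0.0560 in limma) and without replicate 1 or 3 of day 21 (0.88 and 0.81, adjusted p = 0.0634 and 0.0745), and it held under 17 of the 23 alternatives.

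The remaining B2M probe sets were not called in the fit. Ssc.19916.2.S1_a_at differed by 0.47 ± 0.19 and Ssc.17269.1.S1_at by 0.16 ± 0.18 between day 21 and day 0, with limma adjusted p-values of 0.129 and 0.624. The latter turned to -0.22 with scaling on the hybridization controls. Ssc.5896.1.S1_at had signals of 21111, 28244 and 25353 at day 0 and of 20042, 20622.5 and 21649 at day 21, so the day 21 arrays overlapped the lowest day 0 array. Its difference was -0.25 ± 0.12 with a limma adjusted p of 0.209, and it was called lower after quantile normalization (-0.41, adjusted p = 0.0244) and with scaling on the hybridization controls (-0.63, adjusted p = 0.00478). Ssc.7768.1.A1_at had a single bright array at day 0, with signals of 2516.5, 506.1 and 568.5, and 519.5, 446.4 and 440.8 at day 21. Its difference was -0.94 ± 0.47 with a limma adjusted p of 0.213, and it was -0.20 without that array, replicate 1 of day 0.

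**Figure D2:**
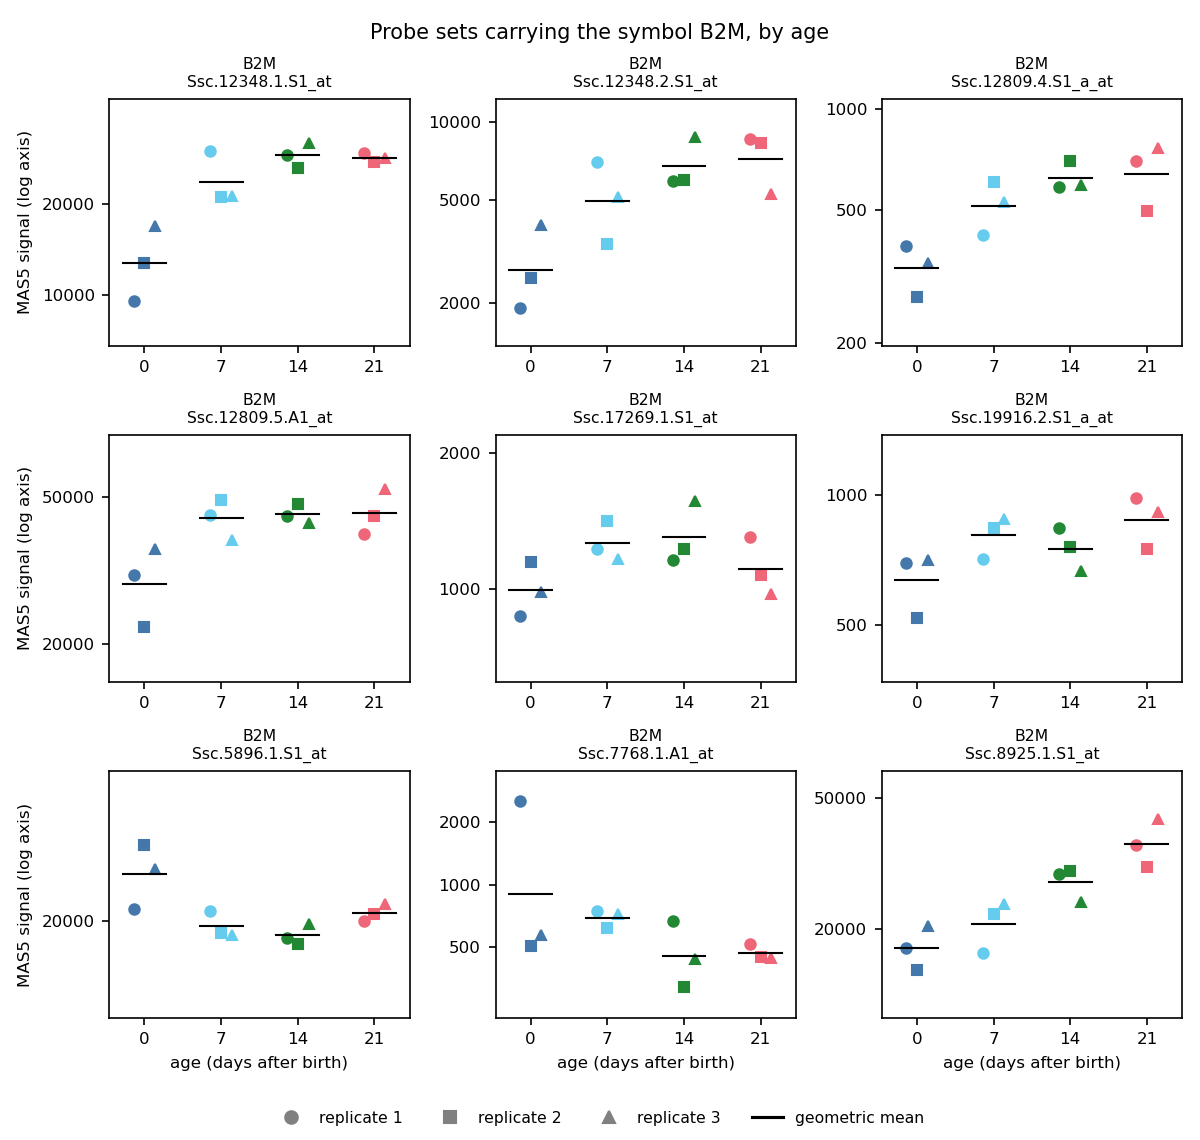
MAS5 signal (log axis) of the 9 probe sets carrying the symbol B2M against age in days after birth; points are arrays, shapes are replicate numbers and bars are geometric means of 3 arrays. Day 0 has the lowest mean for 7 of the 9 and the highest for Ssc.5896.1.S1_at and Ssc.7768.1.A1_at.

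The B2M probe sets also fell apart in how arrays of 1 age differed, given here as correlations over the 12 arrays after age means were subtracted. The arrays share their labelling and scaling, so these values only describe the data. The 2 sets numbered 12348 went together at r = 0.802. Ssc.8925.1.S1_at, Ssc.12809.4.S1_a_at and Ssc.19916.2.S1_a_at went together at 0.753 to 0.823. Between these sets, Ssc.12348.1.S1_at and Ssc.12809.4.S1_a_at gave -0.419.

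TAP1, a subunit of the peptide transporter, was tested on Ssc.27863.1.S1_at. Its signals were 115.9, 222 and 173.8 at day 0 and 590.9, 250.7 and 233.2 at day 7. They were 500.6, 357.7 and 1287 at day 14 and 775.4, 431.7 and 432.3 at day 21. All later arrays lay above day 0, and replicate 3 of day 14 was the brightest. TAP1 rose by 1.67 ± 0.47, or 3.19-fold, between day 0 and day 21, with a limma adjusted p of 0.0350, while its F test over the ages had an adjusted p of 0.0578. The call at day 21 was lost without replicate 1 of day 0 (1.42, adjusted p = 0.103 in limma), replicate 3 of day 0 (1.71, 0.0527), replicate 1 of day 21 (1.39, 0.133), replicate 2 of day 21 (1.81, 0.0540) or replicate 3 of day 21 (1.81, 0.0686), and it held under 13 of the 23 alternatives. A further pair of TAP1 probe sets stayed between 9.2 and 79.9 and was not tested.

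TAPBP, which encodes tapasin, had signals of 408.6, 595.7 and 380.9 at day 0 and of 673.9, 572.8 and 461.1 at day 21. At day 14 they were 982.7, 568.3 and 537.8. The ages overlapped, and the difference between day 21 and day 0 was 0.31 ± 0.26 with a limma adjusted p of 0.471. With scaling on the hybridization controls its sign turned, to -0.07. TAPBP was thus the member with the smallest fitted difference among the 8 genes when each is taken by its brightest tested probe set.

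**Figure D3:**
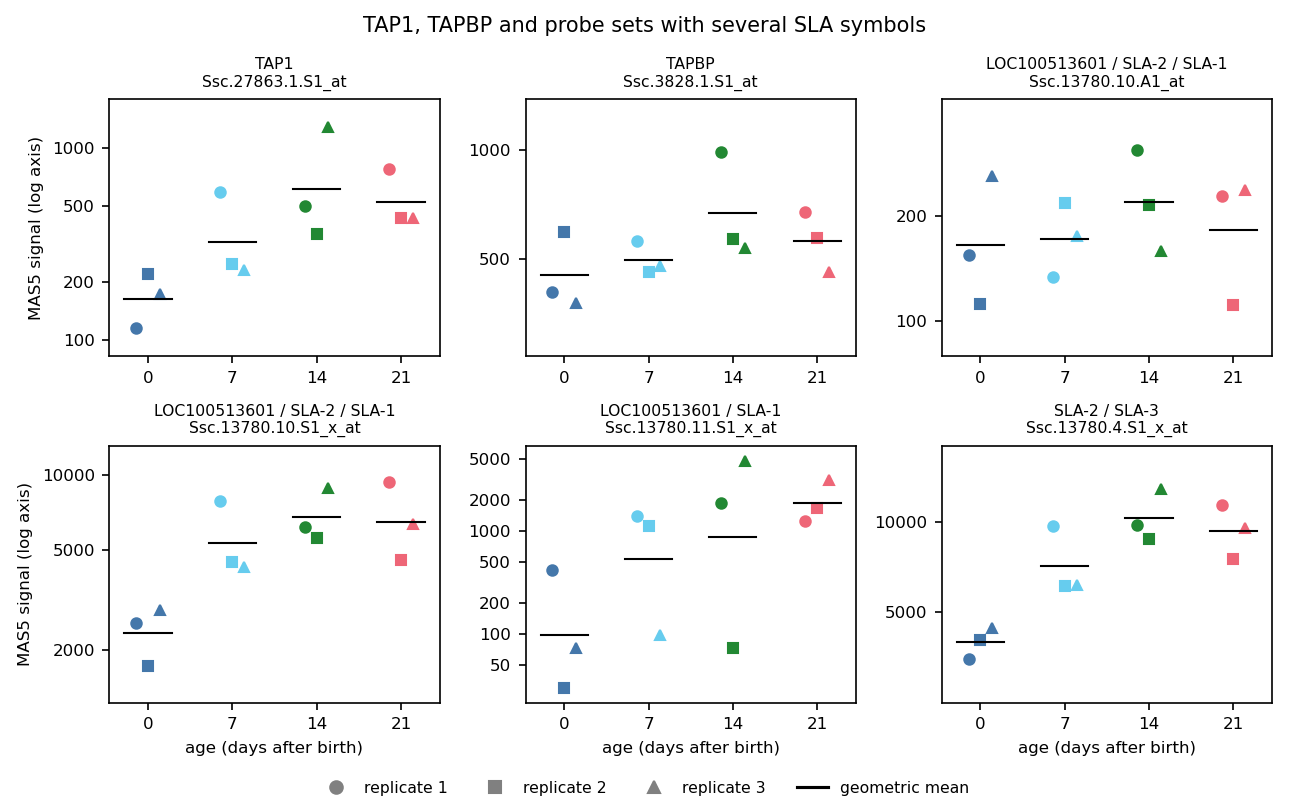
MAS5 signal (log axis) of TAP1, TAPBP and the 4 tested probe sets that name several genes against age in days after birth; points are arrays, shapes are replicate numbers and bars are geometric means of 3 arrays. TAP1 and the sets Ssc.13780.10.S1_x_at and Ssc.13780.4.S1_x_at have every later array above day 0, and Ssc.13780.11.S1_x_at spans 158-fold.

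In the first week 3 of the 17 class I probe sets rose and 0 fell, against 9.4% of all tested probe sets called in this comparison and 5.76% called higher. They were SLA-2 (1.01 ± 0.26, limma adjusted p = 0.0319), B2M on Ssc.12348.1.S1_at (0.90 ± 0.19, adjusted p = 0.0138) and B2M on Ssc.12809.5.A1_at (0.58 ± 0.17, adjusted p = 0.0485). The median difference of the 17 was 0.58, against 0.00 over all probe sets tested. SLA-3, at 1.03 ± 0.38, had the largest first-week difference and an adjusted p of 0.108. TAP1 differed by 0.98 ± 0.47 and SLA-6 by 0.75 ± 0.35, with adjusted p-values of 0.210 and 0.208. The comparison shares its day 0 arrays with that of day 21. Leaving out replicate 1 of day 7 left 0 of the 17 called, with an adjusted p of 0.0635 for Ssc.12348.1.S1_at, 0.126 for SLA-2 and 0.131 for Ssc.12809.5.A1_at. The first-week calls held under 14 of 23 alternatives for SLA-2, 20 for Ssc.12348.1.S1_at and 4 for Ssc.12809.5.A1_at. Without replicate 2 of day 0, replicate 2 of day 7 or replicate 3 of day 7, 1 was called, and without replicate 3 of day 0, 5 were. Without replicate 1 of day 0, 1 was called higher and 1 lower. B2M on Ssc.5896.1.S1_at, at -0.34 ± 0.12 with a limma adjusted p of 0.106, was called lower at day 7 after quantile normalization (-0.42, adjusted p = 0.0298), with scaling on the hybridization controls (-0.65, adjusted p = 0.00671) and without replicate 1 of day 0 (-0.45, adjusted p = 0.0371).

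After the first week no class I probe set was called. Between day 7 and day 14, 0 of 17 passed (2 at an unadjusted p under 0.05), when 0.00694% of the array did. Between day 14 and day 21, 0 of 17 passed (1 at an unadjusted p), with 0.0% of the array called and 436 probe sets at an unadjusted p under 0.05. Between day 7 and day 21, 0 of 17 passed (2 at an unadjusted p), with 0.00694% of the array. The largest difference in that last comparison was that of SLA-6, 0.94 with a limma adjusted p of 0.685, followed by B2M on Ssc.8925.1.S1_at at 0.81 with an adjusted p of 0.390.

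Whether the first week's change differed from that of the following 2 weeks was tested directly, with 0 of the 17 called, 0 at an unadjusted p under 0.05, and 0.236% of the array called. Day 0 had the lowest mean in 15 of the 17 probe sets. Day 14 had the highest mean in 7, day 21 in 8 and day 0 in 2. For most of the 17 the later ages overlapped one another, and their order is a description of the means. The exceptions began with B2M on Ssc.8925.1.S1_at, which had day 7, day 14 and day 21 arrays that did not overlap and lay higher at each age, with a difference of 0.81 ± 0.17 between day 7 and day 21. SLA-6 was separate between day 7 and day 21, with 256.2 to 331 against 420.8 to 661.9. B2M on Ssc.5896.1.S1_at was separate between day 14 and day 21, and on Ssc.7768.1.A1_at, where day 21 lay below, between day 7 and day 21. None of these differences was called. How many of all tested probe sets separate in this way was not counted, so the separations only describe these sets.

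**Figure D4:**
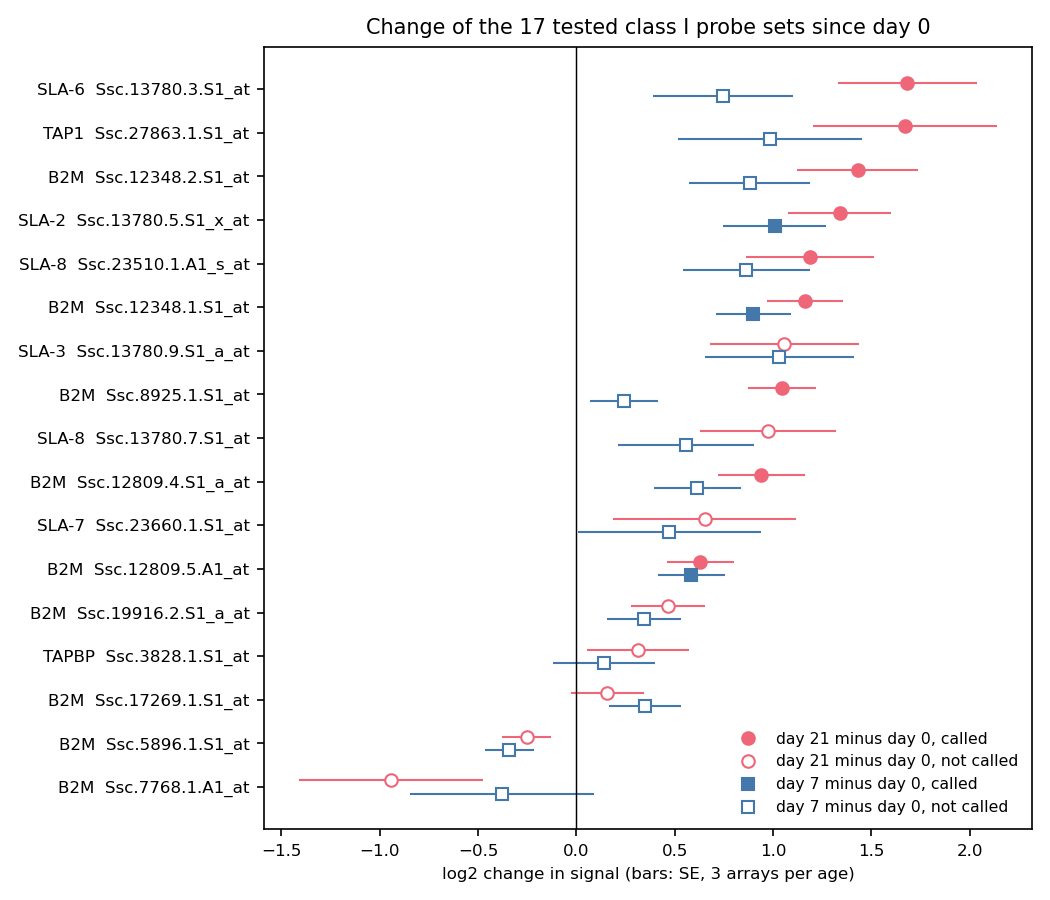
Log2 difference in signal from day 0 to day 21 (circles) and to day 7 (squares) for the 17 tested class I probe sets, with SE bars from limma and 3 arrays per age; filled symbols were called at an adjusted p of 0.05. The rises at day 21 lie between 0.63 and 1.68, and the 2 values below 0 belong to B2M probe sets.

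A heavy chain profile was made by averaging the 5 tested SLA genes, each centred, on every array, and other genes were ranked by their correlation with it over the 12 arrays among 5288 genes. The 5 most alike were ERG (r = 0.959), SLA-DRB1 (0.958), LOC100513601 (0.950), SLA-DQA1 (0.942) and CCNG1 (0.934). ERG encodes a transcription factor of endothelial cells, SLA-DRB1 and SLA-DQA1 are MHC class II chains, and LOC100513601 is a symbol that the shared SLA probe sets also name. The arrays share the step after day 0, and after age means were subtracted the same genes gave 0.788, 0.850, 0.825, 0.718 and 0.644. By that measure TBCCD1 came first, at 0.942, followed by TMLHE at 0.921. Among the other members, B2M on Ssc.12348.1.S1_at followed the profile at 0.934 and TAP1 at 0.864, and these were 0.629 and 0.590 within ages. The 9 B2M probe sets ranged widely, with Ssc.12809.5.A1_at at 0.712 and at -0.027 within ages, Ssc.7768.1.A1_at at -0.483 and Ssc.5896.1.S1_at at -0.625. TAPBP gave 0.532 and 0.138. Within each of days 7, 14 and 21, replicate 2 had the lowest profile, 0.30 to 0.36 log2 below its age mean.

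Genes listed for class I peptide handling and folding moved in both directions by day 21, 6 with a higher mean and the others with a lower one. How each change bears on the peptides that reach class I was not tested. Of 15 such genes tested 1 rose and 5 fell, with a median of -0.62, against 7.36% of all genes called higher, 7.1% called lower and a median of -0.02. The gene that rose was PSMB8, a subunit of the immunoproteasome, by 1.52 ± 0.39 with a limma adjusted p of 0.0232. PSME2, PSME1, TPP2, PSMB10 and ERP29 also had higher means, by 0.66, 0.40, 0.33, 0.15 and 0.06, and were not called. SEC61A1, a subunit of the channel into the endoplasmic reticulum, fell by 1.14 ± 0.25 on the log2 scale (limma adjusted p = 0.0119), and PSME3, a proteasome activator subunit, fell by 0.75 ± 0.18 (adjusted p = 0.0176). The peptidase THOP1 fell by 0.81 ± 0.21 (limma adjusted p = 0.0271). The chaperones PDIA3 and CANX, which serve many other proteins as well, were the other two that fell, with limma adjusted p-values of 0.0368 and 0.0374.

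These calls depended on single arrays and on the poly-A ratio. With that ratio as a covariate 0 rose and 1 fell, with a median of -0.15. Leaving out replicate 1 or 3 of day 21 left 0 rises and 1 fall, and leaving out replicate 1 of day 0 left 0 and 2. PSMB8 had limma adjusted p-values of 0.0750 without replicate 1 of day 0, 0.0953 without replicate 1 of day 21 and 0.0783 without replicate 3 of day 21. SEC61A1 was lost without replicate 1 of day 21 (adjusted p = 0.0534 in limma) and PSME3 without replicate 3 of day 21 (0.0693). THOP1 was lost without any 1 of 5 arrays, replicates 1 and 2 of day 0 and all 3 of day 21, with adjusted p-values of 0.0556 to 0.0888 in limma. PDIA3 kept its call under 13 of 23 alternatives and CANX under 10, with limma adjusted p-values up to 0.148 and 0.164.

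Of 13 tested regulators of class I genes, 2 rose and 0 fell, with a median of 0.15. Over all genes 7.36% were called higher and 7.1% lower, with a median of -0.02. The receptor chain IFNGR1, which binds interferon gamma, rose by 0.93 ± 0.20 with a limma adjusted p of 0.00992. The transcription factor IRF1, which acts on class I promoters, rose by 1.24 ± 0.29 with a limma adjusted p of 0.0168, and its signals went from 194.9, 232.2 and 269 at day 0 to 842.6, 383.9 and 494.5 at day 21. IRF9 and STAT2, which carry the signal of type I interferon, differed by 0.96 ± 0.39 and 0.56 ± 0.27 and were not called (limma adjusted p = 0.130 and 0.202). With the poly-A ratio as a covariate 0 of the 13 were called, and with scaling on the hybridization controls IFNGR1 and IRF1 had adjusted p-values of 0.136 and 0.0518. IRF1 was also lost without replicate 1 of day 21, at 0.92 with a limma adjusted p of 0.0694. The 3 tested class I-like genes, FCGRT, PROCR and AZGP1, differed by 0.39, 0.86 and 0.11 and 0 were called.

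Among 21 interferon-induced genes outside the class I members, 9 rose and 0 fell, with a median of 1.499. Among 7 MHC class II genes 6 rose and 0 fell, with a median of 1.67. The other, SLA-DMA, had a lower mean at day 21 (-0.70, limma adjusted p = 0.0523) and was called lower under 4 of 23 alternatives. Over all genes 7.36% were called higher and 7.1% lower, with a median of -0.02. The first class II gene in order of p was SLA-DRB1 (2.21 ± 0.21, limma adjusted p = 0.000227). For 5 of the 21 interferon-induced genes, UBD, GBP1, GBP2, RSAD2 and XAF1, all 3 day 0 arrays lay under the limit of 90.3. They were tested only through the later ages, so no size of change or test is given for them. UBD, GBP1 and GBP2 are among the 9, so that count and the median rest partly on genes tested in this way. Of the other interferon-induced genes, IFI44L came first in order of p (2.12, limma adjusted p = 0.0100). Its call held under all 23 alternatives, that of IFIT1 under 19 and that of OAS1 under 18. The calls of IFIT2, PARP9 and EIF2AK2 held under 5 of 22, 6 of 22 and 7 of 23. All 3 day 0 arrays lay under the limit for 0 of the 17 class I probe sets. Without replicate 1 of day 21, or with the poly-A ratio as a covariate, 2 interferon-induced genes were called higher, and 4 class II genes were.

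**Figure D5:**
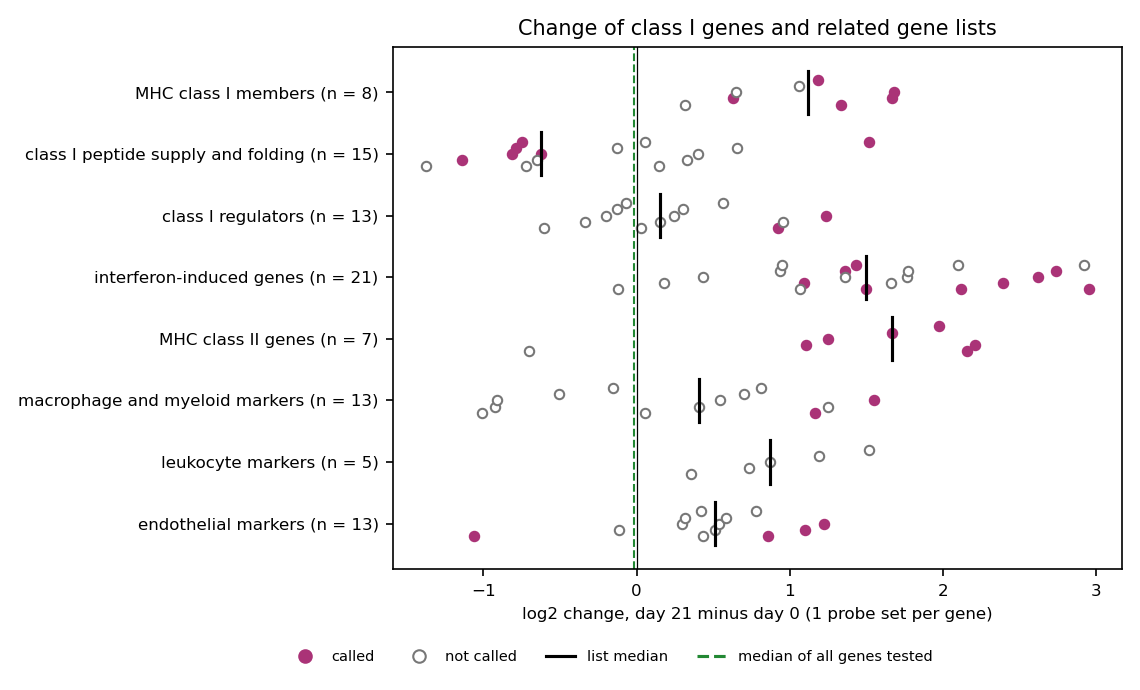
Log2 difference from day 0 to day 21 of each tested gene in 8 lists, with 1 probe set per gene; filled points were called by limma at an adjusted p of 0.05, the black bar is the list's median and the dashed line the median of all 5296 genes. The class I members have a median of 1.12 and the genes of peptide supply and folding one of -0.62. For 5 interferon-induced genes and for LCP1 among the leukocyte markers, all day 0 arrays lay under the limit for testing. They were tested only through the later ages.

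Markers of cells that carry much class I were measured beside the members. In whole tissue, a change in the number of such cells and a change in RNA per cell cannot be told apart. Of 18 genes on the array that mark T cells and natural killer cells, 2 were bright enough to be tested. The defining T cell genes CD3D, CD3E, CD3G, CD4, CD8A and CD8B had dim signals that reached at most 99.9, in CD8B, and were not tested. The chemokine CCL5 had signals of 27.2, 16.5 and 34.7 at day 0 and of 408.2, 131.5 and 295 at day 21. GNLY, the gene of the cytotoxic protein granulysin, had signals of 14.1, 50.7 and 45.1 at day 0 and of 454.1, 117.7 and 206.6 at day 21. For both, every day 0 array lay under the limit of 90.3 and below every day 21 array, so they were tested only through the later ages, and no size of change or test is given.

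Between day 0 and day 21, 7.36% of all genes tested were called higher and 7.1% lower, with a median of -0.02. Of 5 tested genes shared by leukocytes 0 were called, with a median of 0.87. For 1 of the 5, LCP1, all 3 day 0 arrays lay under the limit of 90.3. LCP1 was tested only through the later ages, so the median and the summed signal rest partly on such a gene. The summed signal of the 5 was 527.9 to 856.6 at day 0, 828.5 to 1276 at day 7, 1327 to 1371 at day 14 and 1075 to 1558 at day 21. PTPRC, which encodes the leukocyte antigen CD45, stayed between 39.2 and 123.4 and was not tested. Of 13 macrophage and myeloid genes 2 rose, LAPTM5 and CTSS, and 0 fell, with a median of 0.41. Of the 13, 8 had a higher mean at day 21, while MRC1, CD163, S100A9, SPI1 and CD14 had a lower one. MRC1 differed by -1.01 and CD163 by -0.93 (limma adjusted p = 0.0584 and 0.161). CTSS was lost without replicate 1 of day 0 or replicate 1 of day 21 (limma adjusted p = 0.0929 and 0.118). The summed myeloid signal was 3659 to 4686 at day 0 and 4052 to 8112 at day 21. The class II genes summed to 2531 to 5451 at day 0 and to 8377 to 13420 at day 21. Of 13 endothelial genes 3 rose and 1 fell, with a median of 0.51, and their summed signal was 6956 to 7782 at day 0 and 8169 to 12000.0 at day 21. The rises were CDH5 (1.22), CLDN5 (1.10) and TIE1 (0.86), called under 23, 19 and 7 of 23 alternatives. The fall was ENG (-1.06, limma adjusted p = 0.00555), called under all 23. Of 2 tested B cell genes 0 were called, and of 8 fibroblast genes 1 rose, PDGFRB (0.53, limma adjusted p = 0.0488), whose call held under 4 of 23 alternatives. The part of these cell types in the class I rises was not tested.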

How the data were processed

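RNA of 12 pig skeletal muscle samples was measured on Affymetrix arrays, 3 per age. The authors deposited 1 linear intensity for each probe set, computed with MAS5 per the submitters' processing notes, whose version is not given in the sources used here. The trimmed mean was 500.1 to 500.2 and the median signal 145.4 to 171.7 per array, and the number of arrays limits the precision. Signals were taken as log2 with no offset. The 124 control probe sets and the lowest 40% by mean log2 signal (limit 90.3) were left out. The other 14399 entered 1 limma 3.58.1 fit (R 4.3.3) of age means over 12 arrays, with eBayes and a mean-variance trend. The fit was checked on simulated data.

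The rule for named genes takes every probe set of the 10 members, up to 4 genes per other list in order of p, any gene whose value a sentence rests on, and the 5 genes most like the heavy chains. PDIA3 and CANX were named after their values were seen, to complete the 5 falls of their list. The members and lists were chosen with earlier results of these data known. In a list, a gene is represented by the brightest of its tested probe sets, so B2M stands there as Ssc.12809.5.A1_at. Of all probe sets, 10099 carry 1 symbol in GEO's platform annotation, 198 several and 13826 none. Alternatives changed the filter, the scaling, the offset, the variance model, the covariate, the block and the arrays kept. Figures were drawn with matplotlib 3.10.9.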

Additional observations from a re-analysis of the deposited data

How the results depend on the processing

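Of the 9 class I probe sets called higher at day 21, SLA-2 and the B2M sets Ssc.12348.1.S1_at and Ssc.8925.1.S1_at were called under all 23 alternatives run. The count of 9 became 3 with the poly-A ratio as a covariate and ranged from 5 to 9 when single arrays were left out. The F test's 6 became 0 with that covariate and ranged from 2 to 7 when single arrays were left out. The first week's 3 became 0 with that covariate, 1 with no variance trend and 1 with only the arrays of the ages compared, and ranged from 0 to 5 when single arrays were left out. The causes were not tested beyond these fits. With scaling on the hybridization controls the sign turned for B2M on Ssc.17269.1.S1_at at day 21 (-0.22), TAPBP at day 21 (-0.066) and day 7 (-0.17), and B2M on Ssc.8925.1.S1_at at day 7 (-0.065). B2M on Ssc.7768.1.A1_at turned to 0.37 at day 7 without replicate 1 of day 0, and ranged from -0.79 to 0.37 when single arrays were left out. SLA-7 had no value with the lowest 60% left out. The later comparisons stayed at 0 called class I probe sets under every alternative. Same-numbered arrays of different ages had deviations from their age means that correlated between -0.198 and 0.112. Differently numbered arrays of different ages gave -0.185 to 0.236. No pairing by number was seen over the array, but 3 arrays per age cannot exclude a shared litter or batch. With the replicate block 7 class I probe sets were called at day 21, 2 at day 7 and 4 by the F test. Low signals limit SLA-7, the untested SLA-6 and TAP1 sets and most T cell genes.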

Other observations

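In RefSeq's Sscrofa11.1, SLA-1 to TAPBP lie on 1 chromosome in the order SLA-1, SLA-2, SLA-3, SLA-8, SLA-7, SLA-6, TAP2, TAP1 and TAPBP, and B2M lies on another. The genes between SLA-1 and TAPBP were looked at after the class I values were seen. Of 184 genes in this stretch 67 were tested, and 60 of these do not carry the symbol of a class I member. Of the 60, 10 rose and 5 fell between day 0 and day 21 with a median of -0.16, against -0.02 over all genes. Among the 52 that are on none of the other lists either, 4 rose and 5 fell, with a median of -0.23. Over all genes 7.36% were called higher and 7.1% lower, so the shares lie near those over the array. The 52 were set apart by symbol alone, so they can still hold MHC relatives. LOC106504372, which is among the 4, rose by 1.95 with a limma adjusted p of 0.00171. Its probe set shares a number in its name with that of the class II gene SLA-DRB1. Whether it reads class II transcripts was not tested. FLOT1, which encodes the membrane protein flotillin-1, rose by 1.20 ± 0.19 with a limma adjusted p of 0.00237. The heat shock gene HSP70.2 fell by 1.89 ± 0.39 on the log2 scale with a limma adjusted p of 0.00873, and VARS, a valyl-tRNA synthetase, fell by 1.35 ± 0.26 with an adjusted p of 0.00618. LOC106504372, FLOT1, HSP70.2 and VARS were chosen after their values were seen, and each was called under all 23 alternatives. With scaling on the hybridization controls 3 of the 52 rose and 22 fell.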
